A study of Sus scrofa with 17 samples.

Results

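The genes described here are 10 heat shock and small chaperone genes expressed in the longissimus muscle of weaned piglets, namely HSPA8, HSP90AA1, HSPH1, DNAJB1, DNAJA1, HSPB6, HSPB7, HSPB8, CRYAB and BAG3. They were chosen by their symbols, as 10 of the 31908 genes in the count table, and all 10 passed the filter on low counts that left 14203 genes to be tested. Muscle RNA came from male Large White × Duroc piglets that were 28 days old at the start, were kept singly in metabolic cages, had 5 days of adaptation and were then fed the diets for 2 weeks. The 6 control piglets received a wheat, maize and soybean meal diet. In the 6 UL piglets, 7% of that diet was Ulva lactuca, a green seaweed. The 5 ULU piglets received the UL diet with 0.01% ulvan lyase, an enzyme that cuts ulvan, a polysaccharide of the seaweed's cell wall. Each library held the RNA of 1 piglet, and the question asked of these genes was whether the seaweed, with or without the enzyme, changed their transcript levels.

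Molecular chaperones bind proteins that are unfolded or newly made, keep them from clumping and help them fold. HSP70 proteins such as HSPA8 work in cycles that J proteins (DNAJA1, DNAJB1) start and that HSP110 proteins (HSPH1) and BAG proteins (BAG3) help to complete, and HSP90 proteins finish the folding of many kinases and receptors. Small heat shock proteins (HSPB6, HSPB7, HSPB8, CRYAB) hold unfolded proteins without using ATP, and striated muscle is rich in several of them. In muscle, HSPB8 and BAG3 act together to send worn proteins of the contractile apparatus to autophagy. Many of these genes are switched on by heat shock factors when cells meet heat, oxidants or strain.

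Between 16137365 and 26546810 reads were counted per library. The median depth was highest in ULU (22320520 reads), followed by UL (18398491.5) and control (17240387). Levels are given as CPM, which are reads per 1e6 counted reads after TMM scaling, and 3 reads, taken as the smallest detectable signal, were worth 0.13 to 0.195 CPM. The libraries matched their tissue label, since skeletal muscle markers (ACTA1, CKM, MYH2, TNNT3 and DES) summed to between 86890 and 238077 CPM in every library. Whole muscle was sequenced, so fewer cells of a type and less RNA per cell cannot be told apart.

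All 10 genes were well detected, from 124 reads for HSPB7 in its lowest library to 78262 reads for HSPA8 in its highest. To compare genes with each other, CPM were divided by the counted exonic length in kb. On that scale HSPB8 stood at 384 ± 84.9 CPM per kb (SD, n = 17), HSPA8 at 304 ± 82.4, HSPB6 at 266 ± 65.4 and CRYAB at 254 ± 98.4, and neighbours among these leading genes did not differ beyond the SD of their log2 ratio over the libraries. HSP90AA1 followed at 178 CPM per kb, DNAJA1 at 73.5, BAG3 at 35.6, HSPH1 at 20.2, DNAJB1 at 10.9 and HSPB7 at 3.73, and each step from CRYAB downwards was larger than that SD. Small heat shock genes thus took places among the highest and, with HSPB7, the lowest of these levels. The counted length was 6571 bases for HSPA8, 2025 for HSPB8 and 5775 for HSPB7. It covers all annotated exons, so this order depends on the annotation. In CPM not divided by length, means over the 17 libraries were 1998 for HSPA8, 777 for HSPB8 and 21.6 for HSPB7.

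**Figure D1:**
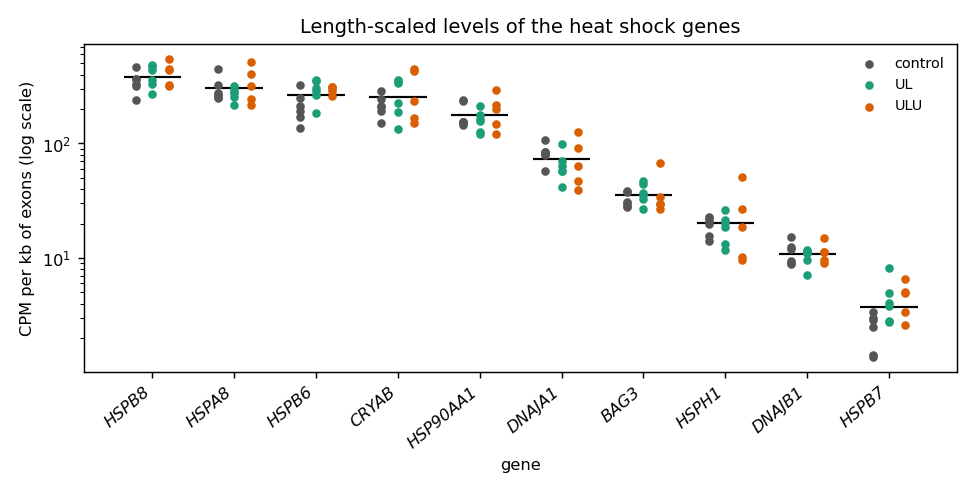
Level of each gene in CPM per kb of counted exons on a log axis, with 1 point per library coloured by diet and a black line at the mean over all 17 libraries. HSPB8, HSPA8, HSPB6 and CRYAB lie close together at 254 to 384 CPM per kb on average, and HSPB7 is lowest at 3.73.

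None of the 10 genes passed an adjusted p-value of 0.05 in edgeR's quasi-likelihood test in any comparison. The background was 0% of the tested genes called in UL vs control, 2.98% in ULU vs control (423 genes, 282 higher and 141 lower) and 0.0352% in ULU vs UL (5 genes). At an unadjusted p under 0.05 there were 2 of the 10 genes for UL and 2 for ULU against control, HSPB6 and HSPB7 each time, and 0 in ULU vs UL. The corresponding shares of all tested genes were 10.8%, 18.9% and 10.8%. DESeq2 called 1 of the 10, HSPB7, in ULU vs control and 0 in the other comparisons. It called, of all genes with an adjusted p, 1.4% in UL vs control, 8.03% in ULU vs control and 2.74% in ULU vs UL. Limma-voom called 0 of the 10 in each. The CPM of the diets overlapped for every one of the 10 genes in each comparison, while they did not overlap for 0.852% of all tested genes in UL vs control, 3.39% in ULU vs control and 1.75% in ULU vs UL.

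In UL vs control, 5 of the 10 log2 fold changes were above 0 and their median was 0.06, against 49.5% and a median of -0.0027 over all tested genes. In ULU vs control, 9 of 10 were above 0 with a median of 0.23, against 47% and -0.028. In ULU vs UL, all 10 were above 0 with a median of 0.11, against 47% and -0.021. The counts for ULU depended on single libraries. Without ULU replicate 40, 4 of 10 genes were above 0 in ULU vs control with a median of -0.05, and 3 of 10 in ULU vs UL with a median of -0.03. The ULU vs UL count was also 6 of 10 without UL replicate 30, with a median of 0.06, and 7 of 10 without UL replicate 27 or 31. The 3 comparisons share libraries with one another, and their values are therefore not independent.

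**Figure D2:**
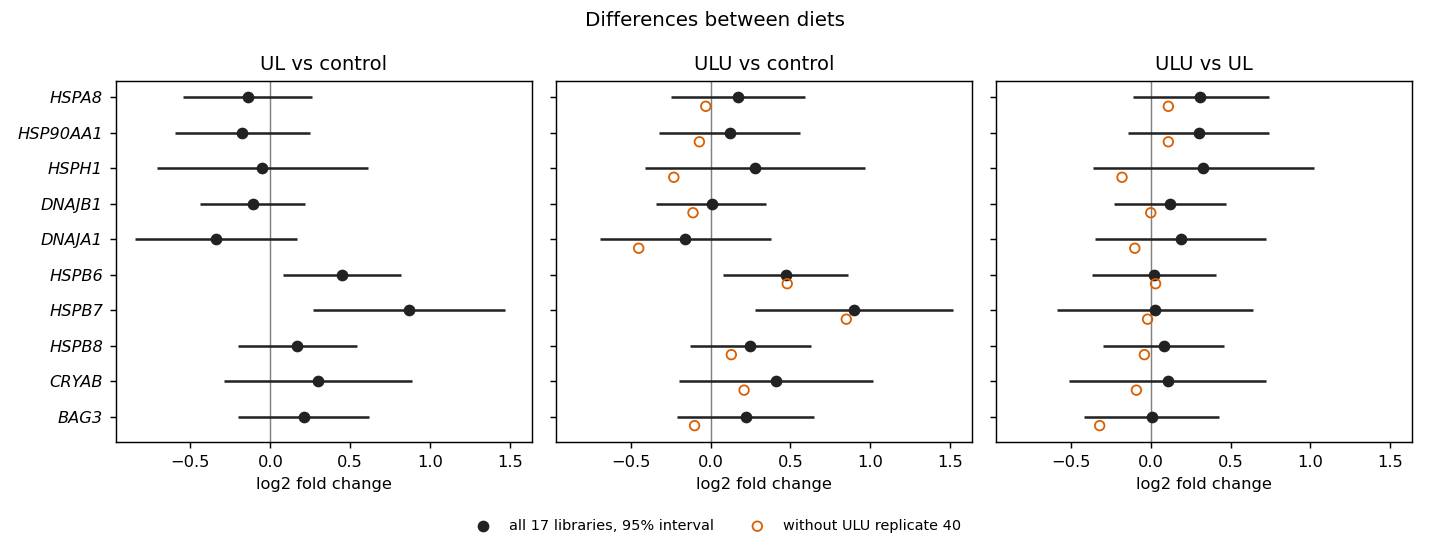
Log2 fold change of each gene in the 3 comparisons, with filled points and bars for the estimate and its 95% interval from all 17 libraries and open circles for the estimate without ULU replicate 40. The bars of HSPB6 and HSPB7 lie above 0 for both seaweed diets against control, and without ULU replicate 40 the estimates of HSPA8, HSP90AA1, HSPH1, DNAJB1 and BAG3 in ULU vs control move below 0.

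Among the cytosolic chaperones, HSPA8 encodes the constitutive HSP70 of the cytosol (ENSSSCG00000015140, chromosome 9, 49982284 to 49990508 in Sscrofa11.1). It ranged from 1647 to 2938 CPM in control (median 1781) and from 1428 to 2107 CPM in UL (median 1835), and stood at 3418, 2076, 2674, 1613 and 1419 CPM in ULU replicates 40 to 44. The lowest and the highest of all 17 libraries were thus both ULU libraries. The mean was 1991 ± 494 CPM in control (SD, n = 6), 1804 ± 237 in UL (SD, n = 6) and 2240 ± 817 in ULU (SD, n = 5). Its log2 fold change against control was -0.14 ± 0.19 (SE) for UL and 0.17 ± 0.20 for ULU, with edgeR adjusted p-values of 0.841 and 0.689. The 95% interval in ULU vs control went from 0.839-fold to 1.51-fold, and without ULU replicate 40 the log2 fold change was -0.03. HSPA8 shared 11.3% of its exonic bases with CLMP on the same strand, which held a mean of 68.24 reads.

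HSP90AA1, the inducible cytosolic HSP90 (ENSSSCG00000002535, on an unplaced scaffold), followed a like pattern. Control libraries held 621 to 1034 CPM (median 671), UL libraries 520 to 927 CPM (median 690), and ULU replicates 40 to 44 held 1265, 872, 942, 519 and 643 CPM. The highest ULU library lay above every other library, and the lowest was level with the lowest UL library. The ULU vs control log2 fold change was 0.12 ± 0.21 (SE; edgeR adjusted p = 0.793), with a 95% interval from 0.802-fold to 1.48-fold, and it was -0.07 without ULU replicate 40. In UL vs control it was -0.18 ± 0.20 (edgeR adjusted p = 0.805).

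HSPH1, an HSP110 protein that releases nucleotide from HSP70 (ENSSSCG00000009334, chromosome 11, 7733874 to 7759576), was the most variable of the 10 genes in ULU. It spanned 51.4 to 82.6 CPM in control (median 74.1) and 42.3 to 95.7 CPM in UL (median 70.6), but read 185, 67.9, 97.7, 36.9 and 35.1 CPM in ULU replicates 40 to 44. The highest ULU library was thus 5.29 times the lowest, and the coefficient of variation was 73.2% in ULU, 18.5% in control and 29.3% in UL. The ULU mean of 84.6 CPM exceeded the control mean of 69.9 CPM although 3 of the 5 ULU libraries lay below that control mean. In ULU vs control the log2 fold change was 0.28 ± 0.33 (SE; edgeR adjusted p = 0.692), and -0.23 without ULU replicate 40. In UL vs control it was -0.052 ± 0.32 (edgeR adjusted p = 0.974).

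**Figure D3:**
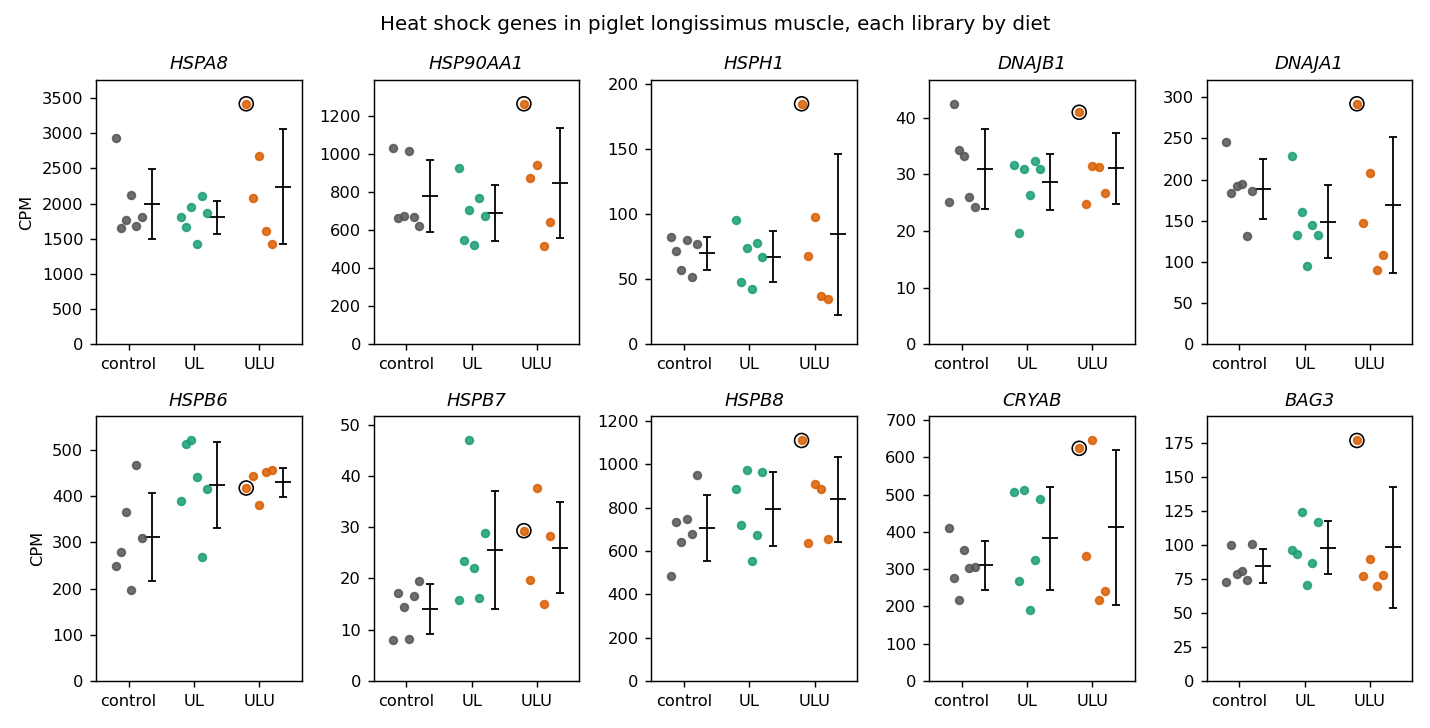
CPM of each of the 10 genes in every library, by diet, with 1 point per piglet, a dash and bar for the mean and SD of the diet, and a ring around ULU replicate 40; each axis starts at 0. The ringed library is the highest of all 17 for HSPA8, HSP90AA1, HSPH1, DNAJA1, HSPB8 and BAG3, while the means of HSPB6 and HSPB7 are higher in UL (425 and 25.5 CPM) and ULU (430 and 26 CPM) than in control (311 and 13.9 CPM).

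The J proteins deliver clients to HSP70 and start its ATP cycle. DNAJA1 (ENSSSCG00000011000, chromosome 10, 33432844 to 33445532) was, with all 17 libraries, the only one of the 10 genes with estimates below 0 for both seaweed diets against control. It ranged from 131 to 246 CPM in control (median 189) and from 94.9 to 228 CPM in UL (median 139), and the ULU libraries held 292, 147, 208, 90.7 and 108 CPM. In UL, 5 of 6 libraries were below the control median, yet the ranges overlapped. The log2 fold change was -0.34 ± 0.24 (SE; edgeR adjusted p = 0.66) in UL vs control and -0.16 ± 0.26 (edgeR adjusted p = 0.78) in ULU vs control, and the latter was -0.45 without ULU replicate 40 and 0.00 without ULU replicate 43.

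DNAJB1, the J protein that pairs with inducible HSP70 (ENSSSCG00000013784, chromosome 2, 64750820 to 64765485), was among the least variable. Control libraries lay between 24.3 and 42.5 CPM (median 29.7), UL libraries between 19.6 and 32.4 CPM (median 30.9), and ULU libraries held 41, 24.8, 31.5, 31.3 and 26.7 CPM. The highest of the 17 libraries was control replicate 22. For DNAJB1 the log2 fold change against control was -0.11 ± 0.16 (SE) for UL and 0.0082 ± 0.17 for ULU (edgeR adjusted p-values of 0.85 and 0.985), and the 95% interval in ULU vs control went from 0.791-fold to 1.28-fold.

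The 4 small heat shock genes were all above 0 in both seaweed diets against control, with medians of 0.37 for UL and 0.44 for ULU. ULU and UL stood close to each other, with a median of 0.05. Without ULU replicate 40, all 4 remained above 0 in ULU vs control with a median of 0.34, and 1 of 4 was above 0 in ULU vs UL.

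HSPB7 is a small heat shock protein of heart and skeletal muscle that binds filamin C (ENSSSCG00000041935, chromosome 6, 75166990 to 75174893). It had the largest differences and the lowest level per length of the 10. Its control libraries lay between 7.89 and 19.5 CPM (median 15.4), its UL libraries between 15.8 and 46.9 CPM (median 22.7), and its ULU libraries at 29.3, 19.6, 37.7, 15 and 28.3 CPM. Of the UL libraries 4 of 6, and of the ULU libraries 4 of 5, were above every control library, and the remaining ones fell inside the control range. The mean was 13.9 ± 4.86 CPM in control (SD, n = 6), 25.5 ± 11.5 in UL (SD, n = 6) and 26 ± 8.89 in ULU (SD, n = 5).

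The HSPB7 log2 fold change was 0.87 ± 0.29 (SE) in UL vs control, a fold of 1.83 with a 95% interval from 1.21 to 2.77, and its edgeR adjusted p-value was 0.273. In ULU vs control it was 0.90 ± 0.30, a fold of 1.86 with an interval from 1.21 to 2.87, and an edgeR adjusted p-value of 0.0987. The difference did not pass the threshold there, while DESeq2 put it past it (adjusted p = 0.0375 on all libraries). Under the other settings, and with any single library removed, this value lay between 0.73 and 1.04. In ULU vs UL it was 0.027 ± 0.30, with an interval from 0.664-fold to 1.56-fold. When both seaweed diets were set against control, a comparison chosen after these values had been seen, the log2 fold change was 0.89 (edgeR adjusted p = 0.0894, 8 of 11 seaweed libraries above every control library), and 0 of the 10 genes were called where 1.46% of all genes were. Part of the HSPB7 exons, 27.4% of their bases, is shared with an unnamed gene on the opposite strand, which held a mean of 0.0588 reads.

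HSPB6, also called HSP20, is a small heat shock protein of muscle (ENSSSCG00000023498, chromosome 6, 45181443 to 45183998) and had smaller differences of the same sign. It ranged from 198 to 468 CPM in control (median 294) and from 268 to 521 CPM in UL (median 429), and the ULU libraries held 418, 443, 381, 453 and 458 CPM. The ULU libraries were tightly grouped, with a coefficient of variation of 7.38% against 30.5% in control and 21.9% in UL, and 1 control library, replicate 25 at 468 CPM, exceeded all of them. The log2 fold change was 0.45 ± 0.18 (SE; edgeR adjusted p = 0.373) in UL vs control and 0.47 ± 0.19 (edgeR adjusted p = 0.177) in ULU vs control. The 95% intervals went from 1.05-fold to 1.77-fold and from 1.06-fold to 1.81-fold. Without control replicate 25 the ULU vs control value was 0.62 and passed the threshold (edgeR adjusted p = 0.0408), the only setting of those tried in which it did. With that library left out, the count of all genes called in ULU vs control went from 423 to 799. Control replicate 25 also held the lowest summed fibroblast markers of the control libraries (2788 CPM, control median 6165). Its summed markers of slow fibres (7585 CPM, control median 4480) and of skeletal muscle (140231 CPM, control median 116921) were the highest of the control libraries. Without control replicate 24, the lowest HSPB6 library, the HSPB6 values were 0.36 in ULU vs control and 0.35 in UL vs control, with unadjusted p-values of 0.0524 and 0.0551 in edgeR and adjusted p-values of 0.293 and 0.536, which left HSPB7 as 1 of the 10 genes under an unadjusted p of 0.05. That library stood apart from the other control libraries, with the lowest median correlation to its own diet (r = 0.944) and a summed level of adipocyte markers of 580.1 CPM. Its summed slow-fibre markers were 3426 CPM. In UL vs control the unadjusted edgeR p-value of HSPB6 was also above 0.05 without UL replicate 28 (0.0521) or UL replicate 29 (0.0543). In ULU vs UL the HSPB6 log2 fold change was 0.019 ± 0.19.

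HSPB8, the small heat shock partner of BAG3 (ENSSSCG00000009844, chromosome 14, 33626128 to 33640792), covered 484 to 952 CPM in control (median 705), 552 to 973 CPM in UL (median 804) and 1111, 639, 909, 886 and 654 CPM in ULU. The ranges overlapped widely, and the log2 fold change was 0.17 ± 0.18 (SE; edgeR adjusted p = 0.78) in UL vs control and 0.25 ± 0.18 (edgeR adjusted p = 0.494) in ULU vs control, where it was 0.13 without ULU replicate 40.

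CRYAB encodes alpha B crystallin, which guards desmin and titin (ENSSSCG00000036724, chromosome 9, 39638502 to 39643530). Control libraries held 218 to 411 CPM (median 304), UL libraries 191 to 512 CPM (median 407), and ULU libraries 624, 336, 645, 216 and 240 CPM. Of the seaweed libraries, 3 of 6 UL and 2 of 5 ULU lay above every control library. UL replicate 30 (191 CPM) and ULU replicate 43 (216 CPM) lay under the lowest control library, and the remaining ones fell inside the control range. The CRYAB log2 fold change was 0.30 ± 0.28 (SE; edgeR adjusted p = 0.754) in UL vs control and 0.41 ± 0.29 (edgeR adjusted p = 0.485) in ULU vs control, with an interval from 0.868-fold to 2.03-fold in the latter. CRYAB shared 33.5% of its exonic bases with an unnamed gene on the opposite strand that held a mean of 919.9 reads. The position of RefSeq's HSPB2 gene lies over the CRYAB row with no row of its own. CRYAB values are therefore less certain than those of genes with no such overlap.

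BAG3, the co-chaperone that links HSP70 and HSPB8 to autophagy (ENSSSCG00000010686, chromosome 14, 129510293 to 129533996), lay between 72.7 and 101 CPM in control (median 79.9) and between 70.6 and 124 CPM in UL (median 95). In ULU it stood at 177 CPM in replicate 40 and at 77.3, 89.6, 70.2 and 78.1 CPM in the others, all of them inside or just under the control range. The ULU mean of 98.4 CPM was above the control mean of 84.6 CPM by 0.22 ± 0.21 on the log2 scale (SE; edgeR adjusted p = 0.602), and below it by a log2 fold change of -0.10 without ULU replicate 40. In UL vs control the log2 fold change was 0.21 ± 0.20 (edgeR adjusted p = 0.75).

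Some of the 10 genes varied together from piglet to piglet within a diet. ULU replicate 40 was the highest of the 17 libraries for 6 of the 10 genes, and ULU replicate 43 was the lowest for 3. To describe this, log2 CPM were centred on the mean of their diet and all 45 pairs of genes were correlated over the 17 libraries, with 100000 permutations within diets and Benjamini-Hochberg adjustment over the 45 pairs. The points of a pair share the library, its depth and its scaling. ULU replicate 43 had the lowest TMM factor of the 17 libraries (0.7649) and the highest summed skeletal muscle markers (238077 CPM). The part of this in its low values was not tested. The share of correlated pairs among all tested genes was not computed, so the counts below have no background beside them. By Pearson's r, 14 of the 45 pairs had an adjusted p under 0.05, 13 of them with r above 0, and by Spearman's rho 17 did, 14 of them above 0. DNAJB1 and HSPB7 were in none of the 14 pairs. HSPH1 and DNAJA1 had the highest value (Pearson r = 0.929, permutation p = 2e-05, adjusted p = 0.00054; Spearman rho = 0.919, permutation p = 5e-05, adjusted p = 0.00075), and r was 0.91 without the 2 libraries farthest from the median of HSPH1. HSP90AA1 and HSPH1 gave r = 0.868 (permutation p = 3e-05, adjusted p = 0.00054) and rho = 0.914 (permutation p = 2e-05, adjusted p = 0.00075), with r = 0.787 without the 2 farthest libraries. HSPA8, HSP90AA1, HSPH1, DNAJA1 and CRYAB formed a group in which every pair had r between 0.801 and 0.929 (adjusted p-values of at most 0.00458 over the 45 pairs).

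CRYAB, a small heat shock gene, thus varied with the cytosolic chaperones, since CRYAB and HSPH1 gave r = 0.852 (permutation p = 0.00039, adjusted p = 0.00245) and rho = 0.848 (permutation p = 0.00092, adjusted p = 0.00517), and r = 0.857 without the 2 farthest libraries. HSPB8 and BAG3, whose proteins form 1 complex, gave r = 0.759 (permutation p = 6e-05, adjusted p = 0.00054) and rho = 0.828 (permutation p = 4e-05, adjusted p = 0.00075), with r = 0.739 without the 2 farthest libraries. HSPB6 went the other way. With HSPH1 it gave r = -0.407 (permutation p = 0.00896, adjusted p = 0.031) and rho = -0.674 (permutation p = 0.00149, adjusted p = 0.0067), with r = -0.535 without the 2 farthest libraries. HSPB7 with HSPH1 gave r = 0.105 (permutation p = 0.708, adjusted p = 0.796) and rho = 0.0343 (permutation p = 0.904, adjusted p = 0.924), and 0.106 without the 2 farthest libraries.

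**Figure D4:**
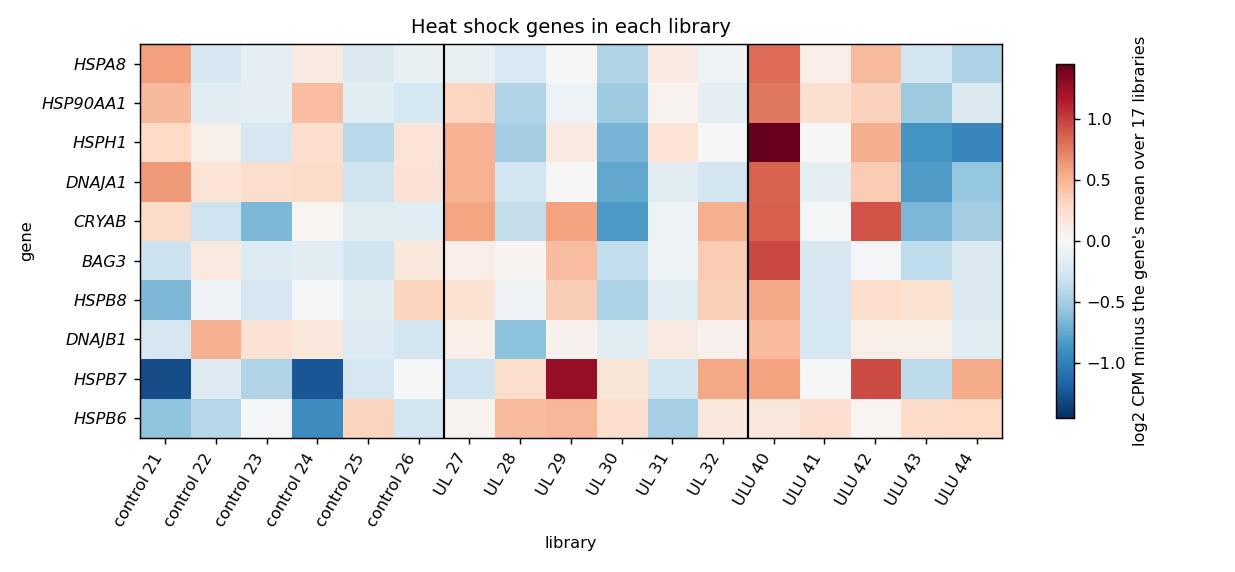
Log2 CPM of each gene (vertical axis) in each library (horizontal axis) minus the gene's mean over 17 libraries, red above and blue below the mean, with black lines between control, UL and ULU. HSPA8, HSP90AA1, HSPH1, DNAJA1 and CRYAB have like rows, red in ULU replicates 40 and 42 and blue in ULU replicates 43 and 44, ULU replicate 40 is red in all 10 rows, and HSPB7 and HSPB6 have their bluest cells in control replicates 21 and 24.

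The genes whose within-diet pattern was most like that of HSPH1, among 5690 named genes with a mean of at least 10 CPM, were ZMPSTE24 (Pearson r = 0.959 over 17 libraries), CHORDC1 (r = 0.900), STIP1 (r = 0.892), PAPOLA (r = 0.886) and SQOR (r = 0.884). For CRYAB they were SQOR (r = 0.914), CCT3 (r = 0.858), CCT5 (r = 0.856), STIP1 (r = 0.854) and ZMPSTE24 (r = 0.838). ZMPSTE24, STIP1 and SQOR were on both lists. CHORDC1 and STIP1 encode HSP90 co-chaperones, CCT3 and CCT5 subunits of the cytosolic chaperonin, ZMPSTE24 the protease that matures lamin A, SQOR a mitochondrial sulfide oxidase and PAPOLA a poly(A) polymerase. ZMPSTE24, SQOR and PAPOLA are not chaperones, so a pattern like that of HSPH1 was not particular to chaperone genes. These values are a description, as the genes were ranked on them.

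A wider list of 86 chaperones, co-chaperones and heat shock factors outside the 10 genes gave 83 rows and 77 tested genes. In ULU vs control, 3 of the 77 rose and 1 fell, beside 2.98% of all tested genes called, and 0 of 77 passed in the other comparisons, beside 0% of all genes for UL vs control and 0.0352% for ULU vs UL. At an unadjusted p under 0.05 there were 9 of 77 in UL vs control, 21 in ULU vs control and 8 in ULU vs UL, beside 10.8%, 18.9% and 10.8% of all tested genes. In the same order DESeq2 on all libraries called 2, 7 and 1 of the list, beside 1.4%, 8.03% and 2.74% of all genes with an adjusted p. The median log2 fold change of the 77 was -0.03, 0.14 and 0.09.

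SMYD1, a muscle methyltransferase that works with HSP90 in myosin assembly, rose in ULU. It held 353 to 468 CPM in control (median 394) and 408 to 485 CPM in UL (median 427), against 712, 494, 598, 610 and 574 CPM in ULU, with no overlap between ULU and either other diet. SMYD1 had a log2 fold change of 0.57 ± 0.10 in ULU vs control (SE; edgeR adjusted p = 0.00979). It kept its call with each of the 17 libraries left out in turn and lost it without composition scaling (0.39, edgeR adjusted p = 0.0592). CDC37, which loads kinases onto HSP90, rose from a mean of 67.9 CPM in control to 90.4 CPM in ULU (log2 fold change 0.41 ± 0.11, edgeR adjusted p = 0.0439). ST13, the HSP70 cofactor called Hip, rose from 248 to 322 CPM (0.38 ± 0.10, edgeR adjusted p = 0.0497). CDC37 and ST13 were near the threshold, and kept their calls with only 4 and 2 of the 17 libraries left out in turn, over log2 fold changes of 0.37 to 0.47 and 0.34 to 0.43. With library totals only they read 0.23 (edgeR adjusted p = 0.273) for CDC37 and 0.20 (edgeR adjusted p = 0.274) for ST13, where the median of all genes moved to -0.21. CDC37 and ST13 also lost their calls with edgeR on the compared diets only and without a filter on low counts.

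DNAJB4, a cytosolic J protein, fell in ULU. Its control libraries lay between 387 and 580 CPM (median 475), its UL libraries between 267 and 367 CPM (median 318), and its ULU libraries at 358, 349, 308, 365 and 344 CPM, so that every seaweed library was below every control library. The log2 fold change was -0.46 ± 0.12 (SE; edgeR adjusted p = 0.0409) in ULU vs control and -0.58 ± 0.11 (edgeR adjusted p = 0.117) in UL vs control, where DESeq2 on all libraries called it (adjusted p = 0.000939). The ULU vs control call remained with 6 of the 17 libraries left out, over a range of -0.51 to -0.40. It was lost with edgeR on the compared diets only and without a filter on low counts. Both seaweed diets against control, the comparison chosen afterwards, gave -0.52 ± 0.10 (edgeR adjusted p = 0.0123).

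By role, 3 of the 16 tested HSP90 and co-chaperone genes rose (SMYD1, CDC37 and ST13), 2 of them near the threshold, and 13 of 16 were above 0 in ULU vs control with a median of 0.26, where 2.98% of all tested genes were called and 47% were above 0. Of the 8 tested HSP70 and HSP110 genes, 2 were above 0 and the median was -0.28, with the endoplasmic HSPA13 at -0.31 ± 0.15 (edgeR adjusted p = 0.258). Of 15 J proteins 8 were above 0 (median 0.01). All 7 mitochondrial chaperones were above 0 (median 0.31), and TRAP1, the mitochondrial HSP90, read 11.6 CPM in control and 18.4 CPM in ULU without overlap (0.66 ± 0.20, edgeR adjusted p = 0.0793). Of the chaperonin subunits 6 of 7 were above 0 (median 0.15; CCT7 0.21 ± 0.10, edgeR adjusted p = 0.253), of the BAG and autophagy partners 8 of 9 (median 0.22; BAG6 0.29 ± 0.12, edgeR adjusted p = 0.185), and of the endoplasmic chaperones 5 of 10 (median -0.03; DNAJB9 -0.23 ± 0.11, edgeR adjusted p = 0.249). Outside the HSP90 group and DNAJB4, no gene of these groups passed the test in edgeR.

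The heat shock factors and the inducible chaperones did not pass either. HSF2 read 66.9 CPM in control, 50.2 CPM in UL and 47.9 CPM in ULU (ULU vs control -0.48 ± 0.16, edgeR adjusted p = 0.0979). HSPB1, the most widely expressed small heat shock protein, was spread over 48.8 to 196 CPM in ULU and 53.2 to 195 CPM in UL but over 57.2 to 90.9 CPM in control (ULU vs control 0.41 ± 0.32, edgeR adjusted p = 0.524; UL vs control 0.62 ± 0.31, edgeR adjusted p = 0.483). The top ULU value was replicate 40, and replicates 41 to 44 held 78.8, 88.7, 48.8 and 58.1 CPM. The row that stands for the inducible HSP70 genes, HSP70.2, was singled out after its values had been seen. It read 67.2 ± 28.8 CPM in control (SD, n = 6), 59.6 ± 17.3 in UL (SD, n = 6) and 49.7 ± 20.7 in ULU (SD, n = 5), a log2 fold change of -0.44 ± 0.30 in ULU vs control (edgeR adjusted p = 0.473).

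Markers of slow fibres were measured beside these genes. The list had 7 rows of 8 (TNNT1, TNNC1, TNNI1, MYL2, MYL3, TPM3 and ATP2A2), and their summed level was 3407 to 7585 CPM in control (median 4480), 5551 to 10660 CPM in UL (median 7269) and 5889 to 12914 CPM in ULU (median 7202). All 7 had log2 fold changes above 0 and an unadjusted p under 0.05 for both seaweed diets against control. None of the 7 was called by edgeR in UL vs control, and TNNT1 and TNNI1 were called in ULU vs control (log2 fold changes of 1.30 ± 0.27 and 0.92 ± 0.23, edgeR adjusted p-values of 0.0178 and 0.0406). Within diets, over 17 libraries, the log2 of this sum was correlated with HSPB6 at r = 0.64 (permutation p = 0.00622, adjusted p = 0.0622 over the 10 genes) and rho = 0.564 (permutation p = 0.0309, adjusted p = 0.309), with r = 0.578 without the 2 libraries farthest from its median. For HSPB7 it was r = 0.25 (permutation p = 0.36, adjusted p = 0.991) and rho = 0.147 (permutation p = 0.609, adjusted p = 0.982), with r = 0.328 without those libraries. Over the other 8 genes r lay between -0.251 and 0.0644. The part of fibre type in the HSPB6 and HSPB7 differences was not tested.

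**Figure D5:**
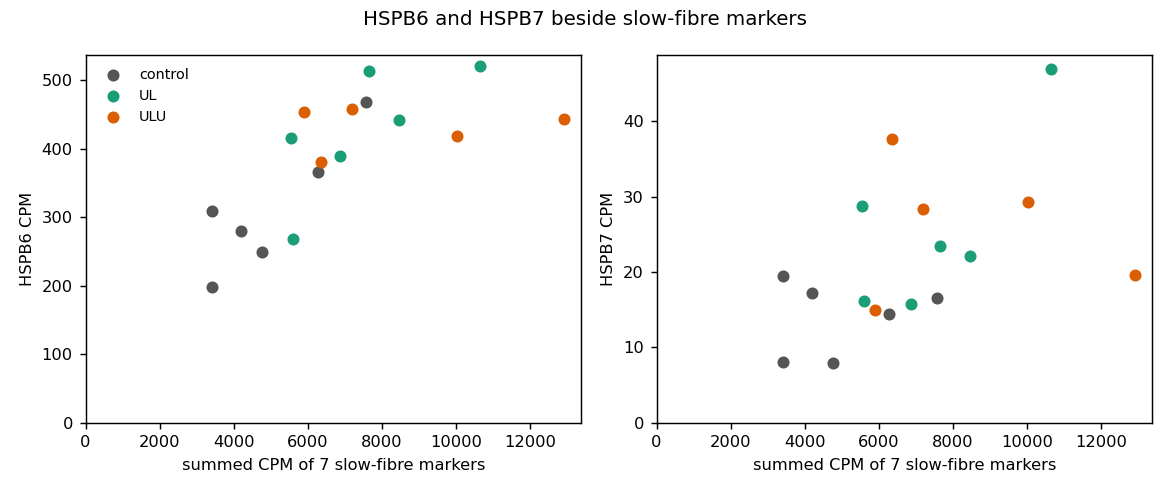
HSPB6 (left) and HSPB7 (right) in CPM against the summed CPM of 7 slow-fibre markers, with 1 point per library coloured by diet. The 6 control libraries sit at 3407 to 7585 CPM of slow-fibre markers and reach 468 CPM of HSPB6 and 19.5 CPM of HSPB7, and all UL and ULU libraries lie to the right of the control median of 4480 CPM.

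Immediate early response genes, which respond to stimulation of the tissue and to handling, held 1 gene that fell in ULU. ATF3 read 117 CPM in control and 10.7 CPM in ULU (log2 fold change -3.46 ± 0.62, edgeR adjusted p = 0.00898), and the other 7 genes did not pass. The 8 genes summed to 35.9 to 271 CPM in control (median 138), 30.3 to 97.2 CPM in UL (median 48.9) and 21.6 to 42.5 CPM in ULU (median 24.6), and 0 of 8 were above 0 in ULU vs control. ATF3 carried most of the control sum, and without it the medians were 25.5 CPM in control, 27.2 CPM in UL and 16 CPM in ULU. ULU replicate 40, the highest library for 6 of the 10 heat shock genes, held 21.6 CPM of the 8 genes and 14.2 CPM without ATF3, where ULU replicate 43 was lowest at 10.6 CPM. Skeletal muscle markers summed to a median of 116921 CPM in control, 139167 in UL and 170196 in ULU, with 2 of 5 (MYH2 and TNNT3) called higher in ULU vs control. MYH1 and MYH4 had no row of their own, and whether the MYH2 row holds their reads was not tested. The cardiac list held the row named MYH6, which spans the position of RefSeq's MYH7, the slow-fibre marker without a row of its own. That row was called higher in ULU vs control (log2 fold change 1.11 ± 0.25, edgeR adjusted p = 0.0236). Which of these genes its reads came from was not tested. The cardiac marker TNNI3 was too low to be tested. Lists for adipocytes, endothelium, fibroblasts, smooth muscle, leukocytes, red blood cells and Schwann cells had 0 genes called by edgeR in any comparison, and 1 adipocyte, 1 fibroblast and 1 leukocyte gene had an unadjusted p under 0.05 in ULU vs control. The 4 tested adipocyte genes all had log2 fold changes below 0 for both seaweed diets against control (medians of -0.95 for UL and -1.23 for ULU), and the list summed to 75.9 to 580.1 CPM in control (median 128), 55 to 179 CPM in UL (median 98.8) and 25.2 to 143 CPM in ULU (median 67.7). In ULU vs control the 5 fibroblast and 4 leukocyte genes were also all below 0 (medians of -0.31 and -0.71). The part of any of these in the values of the heat shock genes was not tested.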

How the data were processed

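Libraries of longissimus RNA from 17 piglets (6 control, 6 UL, 5 ULU) had been sequenced as single reads of 75 nt. The methods name 6 piglets per diet, and a sixth ULU library was not analysed here. After trimming (fastp) and alignment (HISAT2), the authors counted reads per gene and deposited the raw counts. The header of the counts names featureCounts 2.0.1 and Ensembl release 104 of Sscrofa11.1, and gives no option for strand or for reads at several sites, so opposite-strand genes that overlap share an uncertainty and near-identical genes may lose reads. The authors also deposited a mean signal per gene over all libraries, used only as a check, which differed from the mean of the counts by at most 0.471 reads.

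Symbols came from a table of Ensembl identifiers (15029 of 31908 genes), 5 further list genes were named by position, MYH2 by the gene name deposited with the counts, and the inducible HSP70 genes by a RefSeq synonym. Counts were analysed with edgeR 4.0.16 in R 4.3.3: TMM factors, the filter on low counts, and 1 quasi-likelihood model of all 17 libraries, with Benjamini-Hochberg adjustment over 14203 genes. SEs are the absolute log2 fold change divided by the square root of F, and log2 CPM used a prior count of 2. The tests were also tried on simulated counts, whose means and dispersions were taken from these libraries. The outcome of that trial is not reported here. No 2 libraries of a diet agreed within sampling noise. The labels name no batch, and diet and any unnamed batch cannot be told apart.

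The genes, lists and comparisons were chosen with earlier results of these data known. Named from the wider list were the genes called in any comparison and, for each role with none, the one with the smallest unadjusted p in ULU vs control. The 5 most similar genes were named for HSPH1 and CRYAB. Alternatives were DESeq2 1.42.0, limma-voom (limma 3.58.1), other scaling and filters, the compared diets only, and each library left out. The limit of 3 reads covers counting error only. No sequences were analysed here.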

Additional observations from a re-analysis of the deposited data

Results flagged for a closer look

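Within each diet, the highest and lowest library of each of the 10 genes was compared with the nearest other library by Dixon's rule, which chance meets in about 1 of 20 groups. Of 30 groups, 2 met it. HSPA8 in control replicate 21 stood at 2938 CPM, where the next control library held 2123 CPM (gap over range 0.631, critical value 0.625, n = 6). BAG3 in ULU replicate 40 stood at 177 CPM, where the next ULU library held 89.6 CPM (gap over range 0.818, critical value 0.71, n = 5). Without control replicate 21 the HSPA8 log2 fold change was 0.31 in ULU vs control and 0.00 in UL vs control.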

How the results depend on the processing

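For the 14 genes tested by name (the 10 heat shock genes, SMYD1, CDC37, ST13 and DNAJB4), 325 of 336 log2 fold changes under other settings and 678 of 714 with 1 library left out kept their direction, and 7 and 2 of them passed the threshold only there. The 714 include values with a library of the diet outside the comparison left out. Those values could move little, so the share kept overstates how stable the directions were. The heat shock count of 0 became 1 (HSPB7) in ULU vs control with DESeq2, on all libraries and on the compared diets (1), and was 0 in the 3 comparisons under the remaining settings and for both seaweed diets against control. DESeq2 gave counts for the wider list of 2 and 2 (UL vs control), 7 and 8 (ULU vs control) and 1 and 2 (ULU vs UL), and for all genes of 139 and 149, 1036 and 822, and 165 and 244. In ULU vs control the wider list had 1 gene with edgeR on the compared diets, 2 with library totals only and 1 without a filter, and all genes 111 with the compared diets and 228 without a filter; in ULU vs UL all genes had 1, 9 and 8 there and 8 with limma-voom. Library totals only, without TMM, moved the median of all genes to -0.08, -0.21 and -0.13 in the 3 comparisons. The values that changed sign there were HSP90AA1 (-0.03) and DNAJB1 (-0.20) in ULU vs control, and HSPB6 (-0.09), HSPB7 (-0.05), HSPB8 (-0.03) and BAG3 (-0.10) in ULU vs UL, all of which lay above that shifted median. The stricter filter gave DNAJB1 -0.05 in ULU vs control and, in ULU vs UL, HSPB6 -0.04, HSPB7 -0.03 and BAG3 -0.06, and limma-voom gave BAG3 -0.06; the cause of these changes was not tested. With 1 library left out, counts ran from 0 to 1 for the 10 genes and 1 to 6 for the wider list in ULU vs control, 0 to 1 for the wider list in UL vs control, and, for all genes, from 0 to 16 (without control replicate 25) in UL vs control, 147 (without ULU replicate 43) to 799 (without control replicate 25) in ULU vs control and 1 to 7 in ULU vs UL. Log2 fold changes that crossed 0 then ran, in UL vs control, from -0.19 to 0.00 for HSPA8, -0.18 to 0.05 for HSPH1 and -0.17 to 0.01 for DNAJB1. Against control, the ULU values ran from -0.03 to 0.31 for HSPA8, -0.07 to 0.26 for HSP90AA1, -0.23 to 0.47 for HSPH1, -0.11 to 0.13 for DNAJB1, -0.45 to 0.00 for DNAJA1 and -0.10 to 0.32 for BAG3, with ULU replicate 40 behind each lowest value. In ULU vs UL they ran from -0.18 to 0.53 for HSPH1, 0.00 to 0.19 for DNAJB1 (-0.00 without ULU replicate 40), -0.10 to 0.35 for DNAJA1, -0.08 to 0.09 for HSPB6, -0.15 to 0.29 for HSPB7, -0.04 to 0.16 for HSPB8, -0.11 to 0.27 for CRYAB and -0.32 to 0.11 for BAG3. With 5 or 6 piglets per diet, the intervals of HSPH1 and CRYAB in ULU vs control still allowed folds of 1.95 and 2.03.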
